A study of Homo sapiens with 12 samples.

Results

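The genes described here build new DNA, supply its nucleotides, or belong to the E2F program that switches such genes on as cells enter S phase. The 44 genes were chosen by name, for their known roles, from 60617 genes in the files, with earlier results of these data known. All 44 were found by symbol and all 44 passed the filter on low counts, among 17620 genes tested. They were measured by RNA-seq in SNU308, an established human gallbladder cancer cell line, in 12 samples. Cells labelled wild type (WT) were given 1 of 3 siRNAs at 25 nM and taken after 3 days, namely a non-targeting control (NTC), siCEACAM6#2 or siCEACAM6#3, with 4 replicates each. CEACAM6 is a cell surface adhesion molecule of the carcinoembryonic antigen family. All cells, controls included, went through transfection, and a single line was used. The labels do not say whether replicates were separate cultures, so p-values measure only the spread between these samples, which may be technical.

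Before a cell divides, each chromosome is copied once by a replisome that moves along the unwound strands. CDC45 and the GINS complex join the MCM ring to form the helicase that unwinds DNA, and replication protein A covers the single strands. Polymerase alpha with its primase lays down primers, replication factor C loads the PCNA clamp, and polymerases delta and epsilon extend the strands. Many of these genes, and those of deoxynucleotide synthesis, are switched on by E2F factors once cyclin-dependent kinases inactivate the retinoblastoma protein RB. Their transcript levels are therefore widely read as a sign of how many cells in a culture are cycling. In bulk samples such as these, fewer cells in S phase and less RNA per cell cannot be told apart.

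The total estimated count per sample was between 21799476 and 22059456. CEACAM6 lay between 524 and 619 CPM (read counts scaled to the depth of each sample) in NTC, between 286 and 353 with siCEACAM6#2 and between 386 and 438 with siCEACAM6#3, so every siRNA sample was below every NTC sample. The 8 biliary epithelial markers ran from 48.6 TPM (transcripts scaled by length and by the total of the sample), the lowest of MUC1, to 3609 TPM, the highest of KRT19. Of 11 markers of other cell types, 8 stayed at 1.24 TPM or below in every sample, while VWF reached 2.01, COL1A1 3.76 and CD68 61.9 TPM. Of the 5 of these markers that were tested, VWF, an endothelial gene, fell by 0.44 on the log2 scale with siCEACAM6#2 (limma-voom adjusted p 0.042), CDH5 was at -0.998 (limma-voom adjusted p 0.0722), and 0 were called with siCEACAM6#3. Their part in the results was not tested. The sites at which the siRNAs pair with CEACAM6 are shown because they define the treatment, and they were read from the study's list of reagents. The capitals mark the whole site of 21 bases.
siCEACAM6#2: CAGCCATGCAATGCCAAATAA
siCEACAM6#3: CTCCTAATAGTCATACTAGTA
In GRCh38 these sites lay on the plus strand at chr19:41771369-41771389 and chr19:41771611-41771631, both in the 3′ UTR, in exon 6 of 6. The siCEACAM6#3 site had 1 further full match in the genome, at chr19:42799318-42799338 on the minus strand, where the annotation used here lists no gene.

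Replicate 1 of each siRNA group stood apart in these genes. For each sample a score was taken as the mean over the 44 genes of log2 CPM minus the gene's mean over the 12 samples. In NTC replicates 1 to 4 the score was 0.16, 0.16, 0.092 and 0.067. With siCEACAM6#2 it was 0.15, -0.16, -0.16 and -0.052, and with siCEACAM6#3 it was 0.14, -0.22, -0.047 and -0.12. Replicate 1 of both siRNA groups thus lay within the NTC range, and the other 6 siRNA samples lay below every NTC sample. In these replicate 1 samples, 22 of the 44 genes with siCEACAM6#2 and 22 with siCEACAM6#3 were below their NTC mean, against 40 or 41 in the other siCEACAM6#2 samples and 35 to 43 in the other siCEACAM6#3 samples. Across all tested genes the share below the NTC mean was between 48.8% and 51.2% in the siRNA samples.

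**Figure D1:**
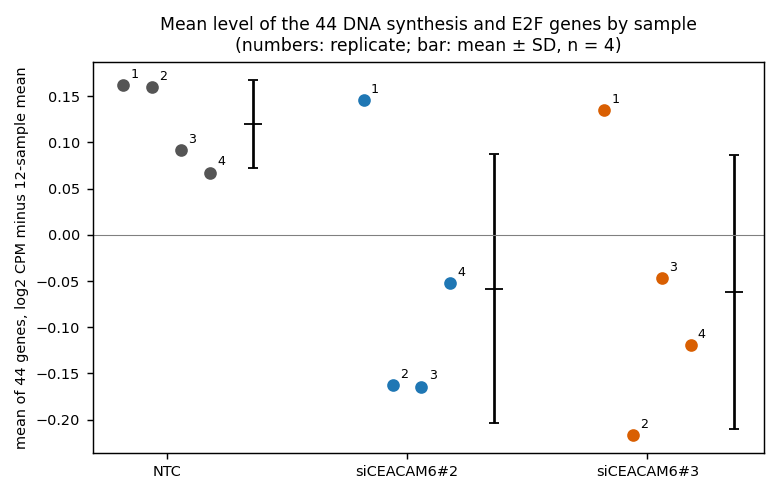
Score of the 44 genes (vertical axis, mean log2 CPM minus each gene's 12-sample mean) in every sample of the 3 groups, with replicate numbers beside the points and mean ± SD (n = 4) at the right of each group. Replicate 1 of siCEACAM6#2 (0.15) and of siCEACAM6#3 (0.14) sit among the NTC samples, and the other 6 siRNA samples sit below 0.

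The same library was the highest of its 4 for 40 of the 44 genes in siCEACAM6#2 replicate 1 and for 32 in siCEACAM6#3 replicate 1. Over all tested genes these libraries were the highest of their group for 30.7% and 28% of genes. In NTC, replicate 1 was the highest for 20 of the 44 genes and replicate 2 for 17, against 25.5% and 26% of all tested genes. CEACAM6 was at 353 CPM and 423 CPM in replicate 1 of siCEACAM6#2 and of siCEACAM6#3, below every NTC sample. Scores made in the same way for 17 MCM and licensing genes were 0.13 and 0.16 in these libraries, against -0.16 to -0.023 in the other siRNA samples and 0.018 to 0.14 in NTC. Scores of 27 mitotic genes were 0.099 and 0.10, against -0.18 to -0.053 in the other siRNA samples and 0.14 to 0.17 in NTC. Between replicates, the chi-square per gene of siCEACAM6#2 replicate 1 against the others of its group was 5.28 to 10.6, and 3.42 to 5.65 among those others. For siCEACAM6#3 replicate 1 it was 8.38 to 23.7, against 9.47 to 13.4. What sets these libraries apart was not tested. Calls for these genes rest on all 12 samples. Since replicate 1 was singled out by the levels of these same genes, larger differences without it follow from that choice, and values without it are given as a description with no test.

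**Figure D2:**
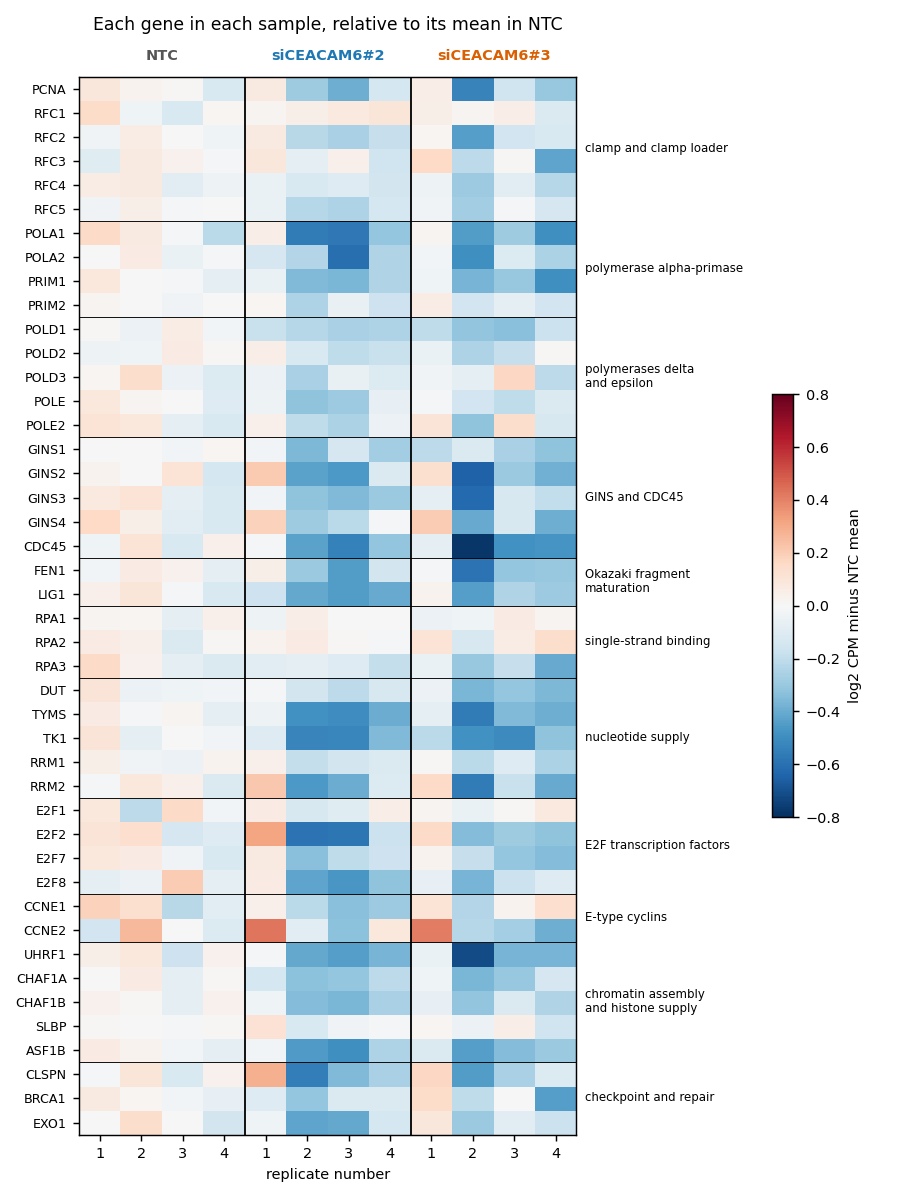
Log2 CPM of each of the 44 genes (rows, by role) in each sample (columns, by group and replicate number) minus the gene's NTC mean; blue is below and red above it. Columns 2 to 4 of both siRNA groups are mostly blue, as 35 to 43 of 44 genes lay below the NTC mean there, while the replicate 1 columns are mixed, with 22 of 44 below.

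In control cells the 44 genes differed in level by a ratio of 66.5. On the TPM scale, POLD2, a small subunit of polymerase delta, was the highest at 193 ± 3.24 (SD, n = 4). The thymidine kinase TK1 followed at 111 ± 6.59 TPM, the dUTPase DUT at 81.4 ± 4.16 and the clamp PCNA at 76.1 ± 5.72. The lowest genes were CLSPN at 3.20 ± 0.414 TPM, E2F2 at 3.18 ± 0.225 and E2F8 at 2.90 ± 0.368. Of the 43 pairs of neighbours in this order, 36 had overlapping ranges in the NTC samples, and whether neighbours differ was not tested. The pairs without overlap included POLD2 and TK1, TK1 and DUT, and GINS1 and CCNE2.

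**Figure D3:**
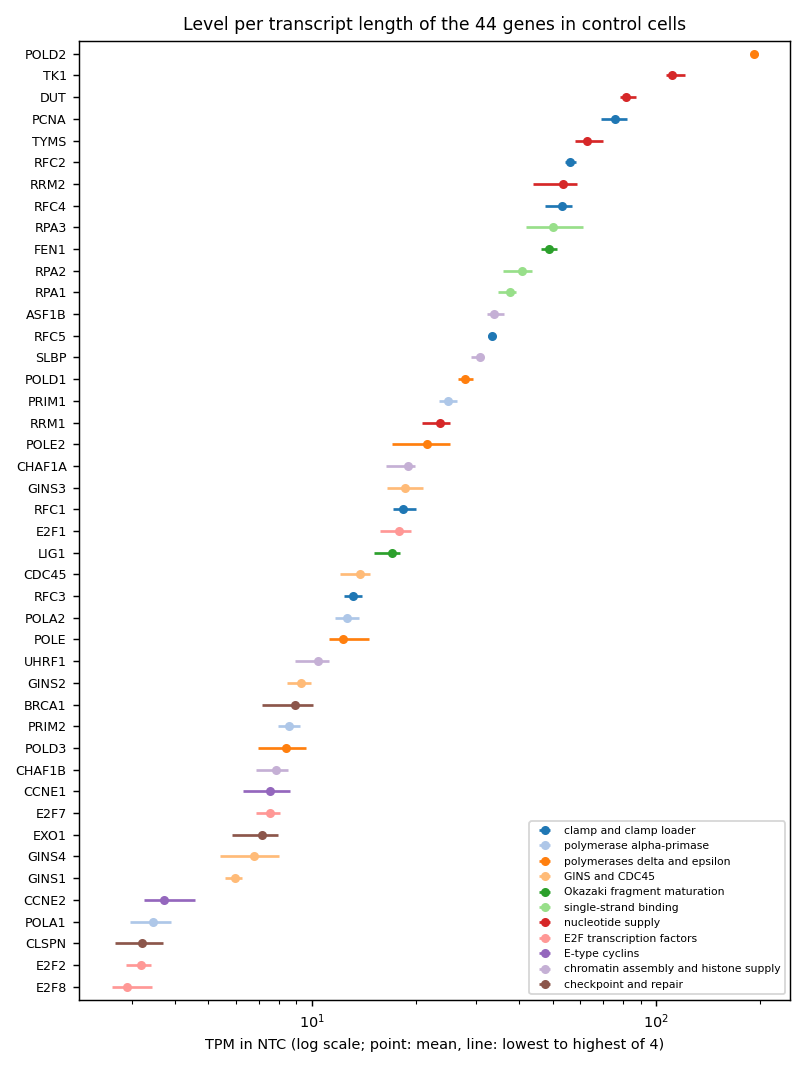
Mean TPM in the 4 NTC samples (horizontal log axis, with a line from the lowest to the highest sample) for each of the 44 genes, coloured by role. The means run from 2.90 (E2F8) to 193 (POLD2).

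With siCEACAM6#2 versus NTC, the median log2 fold change of the 44 genes was -0.19, where that of all tested genes was 0.00020. Of the 44, 40 had a value below 0, against 49.9% of all genes. In limma-voom, 2 of the 44, POLD1 and TK1, fell at a Benjamini-Hochberg adjusted p under 0.05, against 0.641% of all genes called lower. At an unadjusted p under 0.05, 18 were lower and 0 higher, against 7.12% of all genes lower. In 7 of the 44, namely those without overlap, all 4 siRNA samples lay below all 4 NTC samples, as did 5.42% of all genes.

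With siCEACAM6#3 versus NTC, the median was -0.18 (-0.0032 over all genes), and 39 of the 44 were below 0, against 51.1% of all genes. Limma-voom called 0 of the 44, and 0.017% of all genes were called lower. The edgeR quasi-likelihood test called 0 and DESeq2 called 3 (POLD1, DUT and TK1), where these tests called 0.0738% and 0.88% of all genes. At an unadjusted p under 0.05, 19 were lower and 0 higher, against 6.5% of all genes lower. In 5 genes all siRNA samples lay below all NTC samples, as in 3.29% of all genes. Both comparisons share the NTC samples.

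For the average of both siRNAs versus NTC, the median was -0.19 (-0.0025 over all genes), 41 of 44 were below 0 (50.9% of all genes), and POLD1 and TK1 were called, against 0.0908% of all genes called lower. At an unadjusted p under 0.05, 25 were lower, against 6.82% of all genes. As a description, the medians without replicate number 1 of all 3 groups were -0.23, -0.25 and -0.25 for siCEACAM6#2, siCEACAM6#3 and the average. The same removal of replicate number 2, 3 or 4 left 0 of the 44 called in each comparison, with medians between -0.20 and -0.10. Calls over all genes fell as well. They were at most 0.593%, 0.0509% and 0.0904% in these 3 comparisons, against 1.25%, 0.0681% and 0.227% with all 12 samples.

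**Figure D4:**
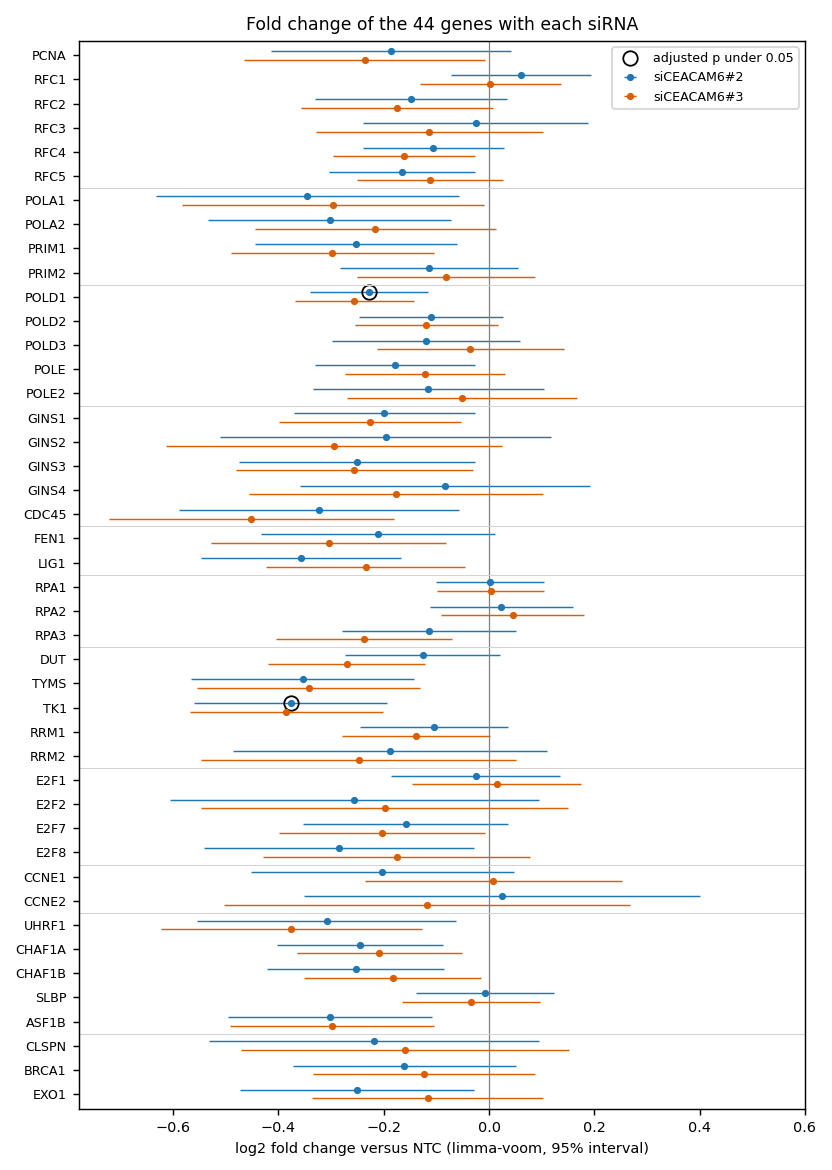
Log2 fold change versus NTC (horizontal axis, limma-voom, with 95% intervals) of the 44 genes, ordered by role, with siCEACAM6#2 and siCEACAM6#3. Points lie left of 0 for 40 and 39 genes, and the circled points are POLD1 and TK1 with siCEACAM6#2, the only calls at an adjusted p under 0.05.

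The clamp and its loader held 6 genes, none of which was called. PCNA, the sliding ring that tethers the polymerases to DNA, was the member that the study also measured by quantitative PCR. By that method the study reported PCNA as significantly reduced after CEACAM6 knockdown, in SNU308 and in another line. PCNA (ENSG00000132646, chromosome 20) was at 69.7, 66.7, 65.9 and 60.2 CPM in NTC replicates 1 to 4, at 68.8, 53.8, 49.9 and 59.5 with siCEACAM6#2 and at 67.9, 45.2, 58.6 and 53.1 with siCEACAM6#3. Replicate 1 of each siRNA lay within the NTC range and the other 6 siRNA samples lay below it. The log2 fold change of PCNA was -0.19 (SE 0.108) and -0.24 (SE 0.108). In the two-sided exact permutation test of 4 samples against 4, p was 0.171 and 0.143, where the smallest possible value is 0.0286. Without the replicate 1 sample of each siRNA group, which lay in the NTC range, the PCNA difference was -0.27 and -0.33, with no test since the samples left out were chosen by their values. Of the loader subunits RFC2 to RFC5, log2 fold changes ran from -0.18 to -0.025, and RFC1, the large subunit, was at 0.061 and 0.0021.

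Of the 4 genes of polymerase alpha and its primase, all were below 0 with both siRNAs and none was called. POLA1, the catalytic subunit that extends RNA primers with DNA, was at 16.2, 15.3, 14.5 and 12.6 CPM in NTC. It was at 15.1, 9.88, 9.80 and 11.73 with siCEACAM6#2 and at 14.8, 10.7, 11.96 and 10.4 with siCEACAM6#3. The replicate 1 samples lay within the NTC range and the others below it. The log2 fold changes of POLA1 were -0.35 (SE 0.136) and -0.30 (SE 0.135), with limma-voom adjusted p of 0.262 and 0.387. PRIM1, which makes the RNA primer, was at -0.25 and -0.30, POLA2 at -0.30 and -0.22, and PRIM2 at -0.11 and -0.081.

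POLD1, the catalytic subunit of polymerase delta, which copies mainly the lagging strand, showed the least spread of the called genes. It was at 57.6, 55.4, 59.8 and 56.4 CPM in NTC, at 50.7, 48.8, 47.9 and 48.3 with siCEACAM6#2 and at 49.7, 46.0, 45.4 and 50.9 with siCEACAM6#3. All 8 siRNA samples, replicate 1 included, lay below all NTC samples. POLD1 fell by 0.23 on the log2 scale with siCEACAM6#2 (SE 0.0532, limma-voom adjusted p 0.0471), a mean of 85.3% of NTC. With siCEACAM6#3 the value was -0.26 (SE 0.0534, adjusted p 0.106 in limma-voom), and in the average -0.24 (limma-voom adjusted p 0.0384). The siCEACAM6#2 call of POLD1 held in 4 of 12 fits that each left out 1 sample and in 6 of 12 other settings, at -0.26 to -0.19 with adjusted p of 0.00417 to 0.501. It was lost without any 1 NTC sample, without siCEACAM6#2 replicate 2, 3 or 4 and without siCEACAM6#3 replicate 3. In those fits 0.274% to 0.955% of all genes were called with siCEACAM6#2, against 1.25% with all 12 samples. The POLD1 call was also lost without replicate number 1 of all groups, where 1.36% of all genes were called. The other 4 genes of polymerases delta and epsilon, POLD2, POLD3, POLE and POLE2, were at -0.18 to -0.036 and were not called.

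The GINS complex and CDC45 held 5 genes, all below 0 with both siRNAs. CDC45, which joins the MCM ring to activate the helicase, was at 16.1, 17.8, 15.1 and 16.9 CPM in NTC, at 16.3, 12.2, 11.3 and 13.2 with siCEACAM6#2 and at 15.6, 9.56, 11.73 and 11.9 with siCEACAM6#3. Again the replicate 1 samples lay within the NTC range and the others below it. CDC45 had the lowest log2 fold change of the 44 with siCEACAM6#3, at -0.45 (SE 0.128, limma-voom adjusted p 0.179), and was at -0.32 (SE 0.126, adjusted p 0.254) with siCEACAM6#2. GINS1 to GINS4 ran from -0.30 to -0.083 and were not called. GINS1 had narrow NTC values (13.9 ± 0.159 CPM, SD, n = 4) and lay below all of them in the 4 siCEACAM6#3 samples.

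Okazaki fragments, the short pieces of the lagging strand, are trimmed by the nuclease FEN1 and sealed by the ligase LIG1. LIG1 was at 34.9, 36.4, 33.6 and 31.2 CPM in NTC, at 30.2, 25.6, 24.9 and 25.7 with siCEACAM6#2 and at 34.6, 25.1, 28.7 and 27.8 with siCEACAM6#3. With siCEACAM6#2 all samples lay below NTC, and with siCEACAM6#3 all but replicate 1 did. LIG1 had log2 fold changes of -0.36 (SE 0.0901) and -0.23 (SE 0.0892), with limma-voom adjusted p of 0.0655 and 0.301. FEN1 was at -0.21 and -0.30 (limma-voom adjusted p 0.394 and 0.256).

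Replication protein A, the trimer that coats single-stranded DNA, had values near 0 in 2 of its 3 subunits. RPA1 had a log2 fold change of 0.0021 with siCEACAM6#2 (95% interval -0.10 to 0.10) and 0.0032 with siCEACAM6#3 (-0.099 to 0.11). RPA2 was at 0.023 (95% interval -0.11 to 0.16) and 0.045 (-0.091 to 0.18). RPA3, the smallest subunit, was at 33.4, 30.6, 28.5 and 27.7 CPM in NTC, at 28.2, 28.5, 28.0 and 26.2 with siCEACAM6#2 and at 28.8, 24.3, 26.4 and 22.6 with siCEACAM6#3. The groups overlapped for both siRNAs. For RPA3 the log2 fold changes were -0.11 (SE 0.0778) and -0.24 (SE 0.0788), with limma-voom adjusted p of 0.575 and 0.242.

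Nucleotide supply held 5 genes, all below 0 with both siRNAs. TK1, which returns thymidine to the nucleotide pool and peaks in S phase, was at 116, 103, 108 and 107 CPM in NTC, at 101, 74.9, 75.4 and 84.6 with siCEACAM6#2 and at 93.0, 77.2, 75.9 and 86.4 with siCEACAM6#3. All 8 siRNA samples lay below all NTC samples, and replicate 1 was the highest of each siRNA group. TK1 fell by 0.38 on the log2 scale with siCEACAM6#2 (SE 0.0865, limma-voom adjusted p 0.0431), to a mean of 77.5% of NTC. With siCEACAM6#3 it was at -0.38 (SE 0.0866, adjusted p 0.119 in limma-voom) and 76.8% of NTC, and in the average at -0.38 (limma-voom adjusted p 0.0455). The siCEACAM6#2 call of TK1 held in 4 of 12 fits that each left out 1 sample and in 9 of 12 other settings, at -0.46 to -0.32 with adjusted p of 0.00244 to 0.458. It was lost without any 1 NTC sample, without siCEACAM6#2 replicate 2, 3 or 4 and without siCEACAM6#3 replicate 3. In those fits 0.274% to 0.955% of all genes were called with siCEACAM6#2, against 1.25% with all 12 samples.

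TYMS, the thymidylate synthase that makes dTMP from dUMP, was at -0.35 (SE 0.10, limma-voom adjusted p 0.102) and -0.34 (SE 0.10, adjusted p 0.184). TYMS shares 967 bases of exon with ENOSF1, which was at 23.8 TPM on average, so reads there may be assigned to either gene. DUT, which removes dUTP, was at -0.13 and -0.27, and in it all siCEACAM6#3 samples lay below all NTC samples. The ribonucleotide reductase subunits were at -0.10 and -0.14 for RRM1 and at -0.19 and -0.25 for RRM2, not called. RRM2 had its siRNA replicate 1 values, 84.9 and 81.1 CPM, above the whole NTC range of 67.5 to 77.4 CPM.

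**Figure D5:**
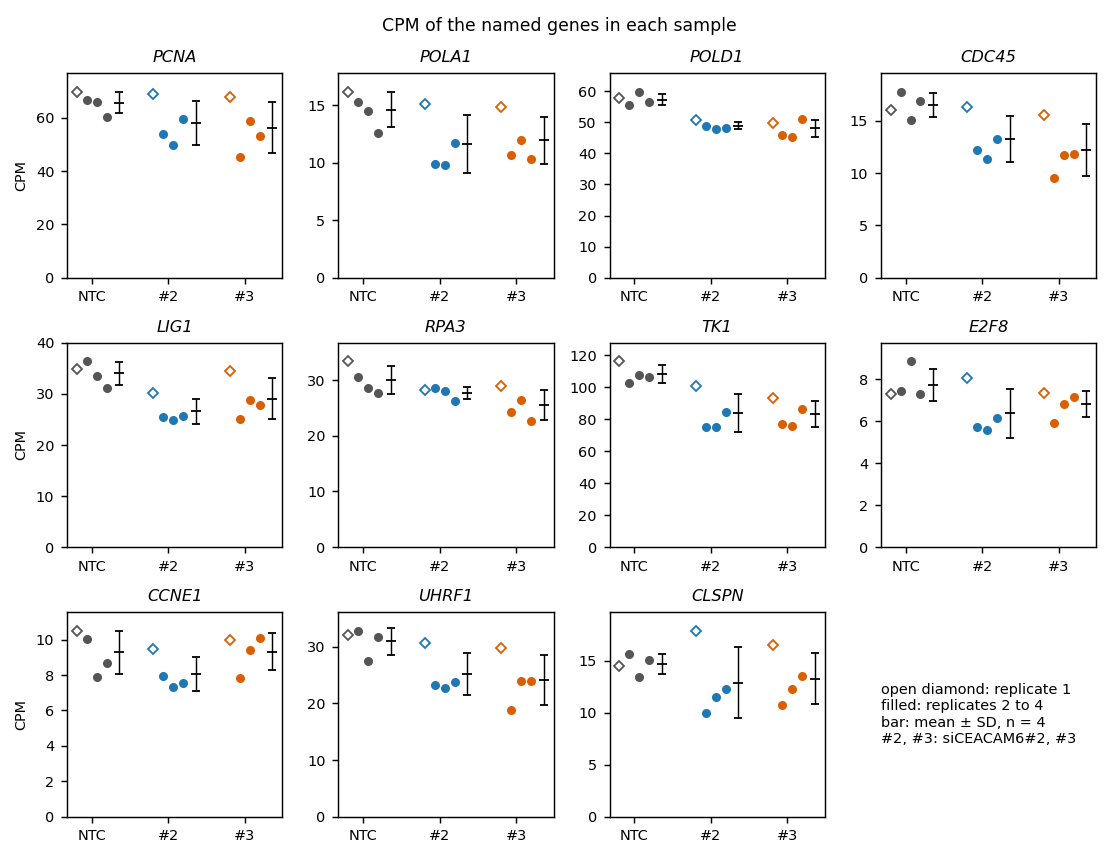
CPM (vertical axes from 0) in each sample for the 11 genes given sample by sample, with open diamonds for replicate 1, filled circles for replicates 2 to 4 and bars for mean ± SD (n = 4). In POLD1 and TK1 all 8 siRNA samples lie below all NTC samples, and in CLSPN the siRNA replicate 1 samples, at 17.9 and 16.5 CPM, lie above them.

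Of the E2F factors, none was called. E2F1, an activator of the program, was at a log2 fold change of -0.026 (95% interval -0.19 to 0.14) with siCEACAM6#2 and 0.015 (-0.15 to 0.18) with siCEACAM6#3. E2F8, an atypical E2F that represses the same targets later in S phase, was at 7.28, 7.43, 8.85 and 7.30 CPM in NTC, at 8.06, 5.72, 5.56 and 6.14 with siCEACAM6#2 and at 7.36, 5.93, 6.83 and 7.16 with siCEACAM6#3. Replicate 1 of each siRNA was in the NTC range and the remaining samples lay below it. The log2 fold changes of E2F8 were -0.29 (SE 0.121) and -0.18 (SE 0.12), with limma-voom adjusted p of 0.307 and 0.571. The other atypical factor, E2F7, was at -0.16 and -0.20, and the activator E2F2 at -0.26 and -0.20.

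Cyclin E drives CDK2 at the start of S phase. CCNE1 was at 10.5, 10.1, 7.89 and 8.67 CPM in NTC, at 9.47, 7.94, 7.30 and 7.52 with siCEACAM6#2 and at 9.96, 7.82, 9.39 and 10.1 with siCEACAM6#3. The 3 groups overlapped. The log2 fold changes of CCNE1 were -0.20 (SE 0.118) and 0.0082 (SE 0.115), with limma-voom adjusted p of 0.489 and 0.987, and the siCEACAM6#3 value turned negative under 10 of the alternatives tried. CCNE2 was at 0.024 and -0.12, and shares 1629 bases of exon with INTS8.

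Chromatin assembly and histone supply held 5 genes, of which 4 were at -0.18 or below with both siRNAs and none was called. UHRF1, which brings the maintenance DNA methyltransferase to new strands, was at 32.0, 32.8, 27.5 and 31.6 CPM in NTC, at 30.7, 23.3, 22.8 and 23.8 with siCEACAM6#2 and at 29.7, 18.8, 23.9 and 23.9 with siCEACAM6#3. The replicate 1 samples lay within the NTC range and the others below it. For UHRF1 the log2 fold changes were -0.31 (SE 0.116) and -0.38 (SE 0.117), with limma-voom adjusted p of 0.239 and 0.212. The histone chaperone ASF1B was at -0.30 with each siRNA, and the CAF-1 subunits at -0.24 and -0.21 for CHAF1A and at -0.25 and -0.18 for CHAF1B. SLBP, which binds histone mRNA, was at -0.0084 and -0.035, and its NTC values were narrow at 38.1 ± 0.255 CPM (SD, n = 4).

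Of the checkpoint and repair genes, none was called. CLSPN, which carries the checkpoint signal from stalled forks, was at 14.6, 15.7, 13.5 and 15.1 CPM in NTC, at 17.9, 10.0, 11.5 and 12.3 with siCEACAM6#2 and at 16.5, 10.8, 12.3 and 13.6 with siCEACAM6#3. Replicate 1 of each siRNA group lay above every NTC sample, and of the others only siCEACAM6#3 replicate 4 reached the NTC range. CLSPN had log2 fold changes of -0.22 (SE 0.148) and -0.16 (SE 0.147), with limma-voom adjusted p of 0.570 and 0.691. BRCA1, a repair factor, was at -0.16 and -0.12, and the nuclease EXO1 at -0.25 and -0.12.

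Setting siCEACAM6#3 against siCEACAM6#2 asked whether the 44 genes differ between the siRNAs. Limma-voom called 0 of the 44, against 1.47% of all genes. At an unadjusted p under 0.05, 0 of the 44 were lower or higher, against 1146 lower and 1200 higher of 17620 genes tested. The edgeR and DESeq2 tests called 0, against 1.57% and 2.93% of all genes. The median difference was -0.0064 on the log2 scale. The 95% interval of the difference included 0 for all 44, with a median half-width of 0.198 and a widest of 0.385. The largest difference was that of CCNE1, at 0.21 (95% interval -0.040 to 0.46). Differences in either direction within these intervals remain possible, so the lack of calls does not show that the siRNAs had equal effects. Side by side, 38 of the 44 were below 0 with both siRNAs, 3 (RFC1, RPA1 and RPA2) were above 0 with both, and 3 had opposite signs. Both comparisons share the NTC samples, which alone favors equal signs, and the share over all genes was not counted. These counts are therefore a description.

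Other genes of the same pathways were taken from lists written by name. Of 20 other replisome genes, 0 were called against NTC with either siRNA by limma-voom, 4 and 2 were lower at an unadjusted p under 0.05, and the medians were -0.11 and -0.089. Of 21 tested of 22 other genes of the E2F and RB pathway, 0 were called, with 4 and 5 lower and 2 and 0 higher at an unadjusted p under 0.05 and medians of -0.029 and -0.085. Of 20 other nucleotide supply genes, 0 were called, 2 and 6 were lower and 1 and 0 higher at that unadjusted threshold, and the medians were -0.035 and -0.042. Between the siRNAs, CCND1, the D-type cyclin, was lower with siCEACAM6#3 (-0.22 on the log2 scale, limma-voom adjusted p 0.014) and POLE3, a small polymerase epsilon subunit, was higher (0.28, limma-voom adjusted p 0.0338).

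Of the 17 MCM and licensing genes, 0 were called with either siRNA, 8 and 3 were lower at an unadjusted p under 0.05, and the medians were -0.13 and -0.12. All 27 mitotic genes were below 0 with both siRNAs, with medians of -0.28 and -0.20. With siCEACAM6#2, 3 of them fell in limma-voom: CCNB1, the mitotic cyclin, by 0.34 on the log2 scale (adjusted p 0.0299), CDC20, an activator of the anaphase-promoting complex, by 0.29 (adjusted p 0.0403), and the phosphatase CDC25B by 0.27 (adjusted p 0.0497). With siCEACAM6#3 0 were called, while 21 were lower at an unadjusted p under 0.05. Whether these lists differ from the 44 genes was not tested.

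As many genes of this kind are switched on by E2F factors, their promoter sequences were read from RefSeq (GRCh38.p14). The window ran from 250 bases before the start site to 50 after it. Binding of E2F was not measured here. The table held 38 of the 44. Missing were POLD3, GINS4, RPA2, RPA3, E2F8 and CCNE2. The words searched on both strands were TTTCCCGC, TTTCGCGC, TTTGGCGC and TTTGCCGC, common forms of the E2F site. At least 1 of these 4 words was present in 16 of the 38 promoters (42.1%), against 3.33% of 27305 promoters in the table and 5.16% of the 12103 that belong to tested genes. As the 44 genes were chosen in part as genes of the E2F program, a higher share follows in part from that choice. Of the genes given sample by sample, 5 held a word, which is in capitals with 16 bases on either side, on the strand of the gene.
PCNA: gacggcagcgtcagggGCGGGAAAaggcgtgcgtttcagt
POLA1: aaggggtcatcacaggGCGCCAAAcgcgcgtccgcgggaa
LIG1: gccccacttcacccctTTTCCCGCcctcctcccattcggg
UHRF1: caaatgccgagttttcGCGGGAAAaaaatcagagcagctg
CLSPN: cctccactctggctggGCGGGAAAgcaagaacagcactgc
These windows lie at chr20:5126658-5126697 (minus strand) for PCNA, chrX:24693765-24693804 (plus) for POLA1, chr19:48170435-48170474 (minus) for LIG1, chr19:4909471-4909510 (plus) for UHRF1 and chr1:35769960-35769999 (minus) for CLSPN. The word began at -59, -137, -114, -14 and -5 relative to the start site, in the same order.

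Words in reverse orientation read GCGGGAAA or GCGCCAAA on the gene's strand, as in 4 of these 5. TK1, POLD1, CDC45 and CCNE1 held none of the words in this window, which says nothing of other forms or places. The CCAAT box (CCAAT, both strands) was in 19 of the 38 promoters (50%), against 36.4% of those of tested genes, with 4 copies in CDC45 and 3 in PCNA. The CHR element (TTTGAA, both strands) was in 2 of 38 (5.26%, against 9.87%), RRM1 and ASF1B. The median log2 fold change of the 16 genes with an E2F word was -0.23 with siCEACAM6#2 and -0.22 with siCEACAM6#3, and that of the 22 without was -0.16 and -0.18. Over all tested genes with a promoter in the table, 625 with a word had medians of -0.013 and -0.024, and 11478 without had 0.00060 and -0.0017. These are descriptions of words in a fixed window, not of bound sites.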

How the data were processed

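RNA was measured by sequencing of poly(A)-selected libraries. Per the labels and methods, the authors trimmed reads with Trim Galore 0.6.4 and quantified them with kallisto on GRCh38.p13 transcripts. The deposited values are estimated counts (69.3% of those above 0 were not whole) and TPM, both summed to genes by the authors. Labels describe strand-specific paired reads of 100 bases, the methods single reads of 50, and the strand setting is not given in the sources used here. Of 44 genes, 26 share exon bases with another gene. Overlaps on the same strand include 139 bases of PRIM1 with NACA, which was at 950 TPM on average. They also include 2012 bases of POLA2 with a gene at 4.17 TPM on average.

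After rounding, counts went through voom in limma 3.58.1 with edgeR 4.0.16 (R 4.3.3), the method the study states, over 17620 genes passing filterByExpr, with TMM factors (0.975 to 1.02) and 1 mean per group. Calls had a Benjamini-Hochberg adjusted p under 0.05 over all genes. CPM used TMM-scaled totals, and log2 CPM a prior count of 0.5. The 44 genes had between 79 and 4675 estimated counts per sample, and counting error was not measured apart from the spread between samples. Scripts were tested on simulated data with planted changes larger than those of any of the 44 genes. How they perform on changes as small as these was not tested.

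The 44 genes, the other lists and the promoter words were chosen with earlier results of these data known. Values in every sample are given for PCNA, each called gene and the gene of each role with the largest absolute average log2 fold change (mean CPM of at least 1), and other lists' genes only where called, at most 3 a list. Alternatives were edgeR, DESeq2 1.42.0, RLE or no scaling, no or a stricter filter (CPM of at least 1 in 4 samples), sample weights, a replicate block, the compared groups alone, limma-trend on log2(TPM + 1) or log2(TPM + 0.1), and each sample left out. Removing each replicate number from all groups, and leaving out samples in the PCNA test, were added after seeing the data.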

Additional observations from a re-analysis of the deposited data

Results flagged for a closer look

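In 9 of 135 groups of 4 values examined (44 genes and the score in 3 groups), 1 sample lay farther from its neighbour than Dixon's test allows at the 95% level. Chance alone gives about 1 in 20 groups. The causes were not tested. With siCEACAM6#2, replicate 1 was high in GINS3 (28.5 CPM, others 22.7 to 23.6), LIG1 (30.2, others 24.9 to 25.7) and UHRF1 (30.7, others 22.8 to 23.8), and replicate 2 was low in BRCA1 (17.4, others 19.9 to 20.1). With siCEACAM6#3, replicate 1 was high in DUT (60.6 CPM, others 48.6 to 50.7), E2F2 (12.96, others 9.13 to 9.53) and CCNE2 (6.46, others 3.70 to 4.14). In NTC, DUT was high in replicate 1 (67.3 CPM, others 60.9 to 61.8) and E2F8 in replicate 3 (8.85, others 7.28 to 7.43). Of the 9 values, 6 belong to replicate 1 of an siRNA group, the libraries whose scores lay in the NTC range.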

How the results depend on the processing

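The median log2 fold change of the 44 genes moved by less than the spread between replicates under each alternative tried, in each of the 4 comparisons. That spread, the pooled SD of the sample scores within groups, was 0.123, with replicate 1 included. Medians ran from -0.25 to -0.12 for siCEACAM6#2 and from -0.26 to -0.10 for siCEACAM6#3. As the spread is not small beside these medians, the comparison says little about how stable they are. Counts of called genes moved more, and the causes were not tested. For siCEACAM6#2, siCEACAM6#3 and the average, against 2, 0 and 2 (1.25%, 0.0681% and 0.227% of all genes, in either direction), DESeq2 called 4, 3 and 5 (2.69%, 0.88% and 1.67%), sample quality weights 12, 5 and 13 (6.36%, 2.17% and 5.1%), and the 3 fits of log2 TPM 0, 0 and 0 (at most 0.0425% of all genes). RLE factors gave 1 for siCEACAM6#2 (1.17%), no filter on low counts gave 1 for siCEACAM6#2 and 1 for the average (0.403% and 0.113%), and the compared groups alone gave 5 for siCEACAM6#2 and 0 for the average (3.49% and 0.0624%). Leaving out 1 sample gave 0 to 6, 0 to 7 and 0 to 9. The highest were without siCEACAM6#2 replicate 1 (6, 1 and 6, with 1.8%, 0.162% and 1.14% of all genes) and without siCEACAM6#3 replicate 1 (4, 7 and 9, with 1.78%, 1.44% and 1.06%). Removing replicate number 1 from all 3 groups gave 4, 7 and 9 (1.36%, 0.972% and 0.865%), and removing number 2, 3 or 4 gave 0 each time (at most 0.593%). As replicate 1 was singled out by the values of these genes, the counts without it are no evidence of a change. Left-out samples moved the PCNA difference between -0.27 and -0.12 for siCEACAM6#2 and between -0.33 and -0.14 for siCEACAM6#3.

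The replicate block called 4, 3 and 4 of the 44 (1.61%, 0.494% and 0.67% of all genes). Between samples with the same number, the correlation of deviations from the group means ran from -0.054 to 0.185. Of these 12 pairs, 2 were above 0.1, the highest being replicate 1 of siCEACAM6#2 with replicate 1 of siCEACAM6#3. Of the 12 samples, 0 correlated best with their own number in both other groups. Whether samples of the same number were handled together was not tested. Among the values followed for the genes given sample by sample, the one that changed sign was that of CCNE1 with siCEACAM6#3, from 0.0082 to -0.022 with library size only, -0.039 and -0.043 with log2(TPM + 1) and log2(TPM + 0.1), -0.039 without a filter on TPM, and -0.068 and -0.062 without replicate number 3 or 4. Leaving out 1 sample gave CCNE1 values from -0.062 to 0.089, below 0 where NTC replicates 3 and 4 and siCEACAM6#3 replicates 1 and 4 were each left out. Depth differed little between samples, and 4 samples a group limit the precision.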
